A study of Mus musculus with 15 samples.

Results

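The genes described here are 9 genes of skeletal muscle determination and differentiation, chosen by name: Myf5, Myf6, Myod1, Myog, Met, Tmem8c, Chrna1, Des and Myl1. They are 9 of the 30534 features counted in the series. Sections of mouse embryos were barcoded by flowing barcodes through parallel microfluidic channels in 2 crossing directions, so that each crossing is a pixel that can hold several cells or part of one. The transcript libraries used here came from embryonic day 10 (E10; 3 libraries at a pixel width of 50 µm, 1 at 25 µm and 2 at 10 µm), embryonic day 11 (E11; 2 at 25 µm and 2 at 10 µm) and embryonic day 12 (E12; 1 at 50 µm). The 11 libraries come from frozen sections with no treatment named. Neither the embryo nor the body level of a section is named, so p-values measure only the spread between these libraries.

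Skeletal muscle of the trunk and limbs arises from the somites, where precursors first switch on the basic helix-loop-helix factors Myf5 and Myod1. Myog follows in cells that leave the cell cycle and differentiate, and Myf6 acts both early and late. Differentiating cells fuse into fibres through the membrane protein encoded by Tmem8c (Mymk, myomaker), and make contractile proteins and the acetylcholine receptor of the nerve-muscle synapse. These factors bind the E-box, a short palindrome of the form CANNTG.

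All 9 members are protein-coding in GENCODE M21 (build GRCm38). Myf5 (chr10:107482908-107486134) and Myf6 (chr10:107492853-107494737) are neighbours on the minus strand with 6.7 kb between them. Myod1 lies at chr7:46376474-46379099, Myog at chr1:134289989-134292548, Met at chr6:17463800-17573980 and Tmem8c at chr2:27061636-27072179. Chrna1 lies at chr2:73563215-73580338, Des at chr1:75360329-75368579 and Myl1 at chr1:66924295-66945404. Des overlaps Gm15179 on the other strand, and since the use of strand in counting is not given in the sources used here, reads of that pair may not be told apart. The other members overlap no annotated gene.

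RefSeq promoter windows (GRCm38.p6) were matched for 6 of the 9 members: Myf5, Myog, Met, Chrna1, Des and Myl1. The 250 bases before the start were searched for the letters CANNTG, which read the same class of motif on both strands, and for CAGCTG, which is one form of CANNTG. The windows of Myog, Chrna1 and Des are shown because these are the 3 members whose window held at least 2 such matches; capitals mark CANNTG.
Myog (chr1:134289754-134290003, + strand): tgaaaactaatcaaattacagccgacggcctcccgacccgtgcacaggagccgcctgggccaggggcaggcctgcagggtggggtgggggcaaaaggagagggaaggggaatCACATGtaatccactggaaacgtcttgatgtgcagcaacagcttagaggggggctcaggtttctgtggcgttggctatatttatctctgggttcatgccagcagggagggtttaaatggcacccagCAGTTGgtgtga
Chrna1 (chr2:73580339-73580588, - strand): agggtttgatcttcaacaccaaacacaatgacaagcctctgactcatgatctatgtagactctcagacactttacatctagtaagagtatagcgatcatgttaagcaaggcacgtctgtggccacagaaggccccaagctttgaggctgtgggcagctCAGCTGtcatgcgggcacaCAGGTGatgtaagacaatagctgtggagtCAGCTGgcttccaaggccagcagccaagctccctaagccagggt
Des (chr1:75360042-75360291, + strand): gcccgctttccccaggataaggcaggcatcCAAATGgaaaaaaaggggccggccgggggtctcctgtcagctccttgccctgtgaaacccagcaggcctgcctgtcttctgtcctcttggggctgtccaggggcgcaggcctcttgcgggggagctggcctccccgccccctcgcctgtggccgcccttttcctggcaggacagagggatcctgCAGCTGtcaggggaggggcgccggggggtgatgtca
The Chrna1 window held 3 matches, at -92, -73 and -44 from the start, of which 2 were CAGCTG. The Myog window held CACATG at -138 and CAGTTG at -12. The Des window held CAAATG at -220 and CAGCTG at -36. Myl1 and Met had 1 match each (CAGCTG at -224 and CACGTG at -126), and Myf5 had 0. Of 32851 promoter windows of the same length, 31.8% held at least 2 CANNTG matches, 12.2% at least 3, 13.0% CAGCTG and 1.26% at least 2 CAGCTG. Positions count from the RefSeq start, which differs from the GENCODE gene start for Myog, Met, Des and Myl1. A match is a string of letters and not a measured binding site.

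Levels are given as CPM, the counts of a gene per 1000000 counts over the tissue pixels of a library. Total counts over tissue ran from 1563489 to 11998765 per library, over 829 to 2271 tissue pixels. A gene not listed in a library's table was taken as 0, which is the case for every 0 of a member below except that of Tmem8c in the third E10 50 µm library. Each gene is compared with itself across libraries, not with other genes, except in the shares of Myf5, Myf6, Myod1 and Myog counts. In sums over a section, fewer muscle cells and less RNA per cell cannot be told apart. The summed level of 10 other skeletal muscle genes, used as markers (Mylpf, Acta1, Myh3, Tnnc2, Tnni2, Tnnt3, Klhl41, Chrnd, Chrng and Cdh15), was 13.7 to 62.8 CPM at E10 50 µm, 98.7 to 132 at E11 25 µm and 543 at E12.

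Myf5, a determination factor, and Myf6, a factor of both early and late steps, had at most 23 counts in any of the 11 libraries. Counts of Myf5 were 3, 0 and 5 in the E10 50 µm libraries, 1 at E10 25 µm, 23 and 2 at E10 10 µm, 5 and 2 at E11 25 µm, 1 and 1 at E11 10 µm, and 5 at E12 (0.769 CPM). A single library, the first E10 10 µm section, held 67.6% of the 34 Myf5 counts at E10, at 1.92 CPM. In that section the 23 counts fell in 18 pixels, and 33.3% of those pixels touched another one, against 4.45% of the other tissue pixels. The pixels with Myf5 were deeper, with a median of 8631 counts against 4010. The 109 pixels highest for the skeletal markers held 0 of the 23 counts, with 4.29% of all counts. Counts of Myf6 were 13, 0 and 1 at E10 50 µm, 0 in the 3 other E10 libraries, 4 and 2 at E11 25 µm, 0 and 0 at E11 10 µm, and 2 at E12 (0.308 CPM). The first E10 50 µm section held 92.9% of the 14 Myf6 counts at E10, 1 in each of 13 pixels. Of those pixels 30.8% touched another one, against 10.4% of the other tissue pixels. The pixels with Myf6 were deeper as well, with a median of 16774 counts against 11242.5. The 43 pixels highest for the skeletal markers held 0 of the 13 counts, with 3.28% of all counts.

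Myod1 and Myog appeared in quantity only in the E12 library among the 11. Counts of Myod1 were 9, 0 and 2 at E10 50 µm, 0 at E10 25 µm, 1 and 0 at E10 10 µm, 2 and 0 at E11 25 µm, 3 and 4 at E11 10 µm, and 83 at E12. Its level was 0 to 0.793 CPM at E10, 0 to 1.46 CPM at E11 and 12.8 CPM at E12 (95% counting interval 10.2 to 15.8). The E12 value stood above all 10 others, and the E10 and E11 ranges overlapped.

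Counts of Myog were 4, 3 and 2 at E10 50 µm, 1 at E10 25 µm, 1 and 0 at E10 10 µm, 2 and 4 at E11 25 µm, 0 and 1 at E11 10 µm, and 118 at E12. Its level was 0 to 0.640 CPM at E10, 0 to 0.521 CPM at E11 and 18.2 CPM at E12 (15.0 to 21.7). Again the E10 and E11 libraries overlapped and the E12 library stood apart.

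In the pooled counts, the make-up of the 4 factors at E12 differed from that at E10 and E11. Myf5 and Myf6 together gave 48 of 71 counts of the 4 factors at E10 (67.6%, exact 95% interval 55.5 to 78.2), 15 of 31 at E11 (48.4%, 30.2 to 66.9) and 7 of 208 at E12 (3.37%, 1.36 to 6.81). These are shares of pooled counts, the intervals cover counting error only, and the library with most Myf5 and the library with most Myf6 carried 23 and 16 of the 48 counts at E10. In single libraries with at least 10 such counts the share was 55.2%, 60.0% and 92.0% at E10, 69.2% at E11 and 3.37% at E12. In the other E11 libraries it was 50.0%, 25.0% and 16.7%, of 8, 4 and 6 counts. In the other E10 libraries it was 0 of 3, 1 of 2 and 2 of 2 counts. Pooled levels at E10 and E12 were 0.691 and 0.769 CPM for Myf5 and 0.284 and 0.308 for Myf6. They were 0.244 and 12.8 CPM for Myod1 and 0.223 and 18.2 for Myog, so the lower share went with higher Myod1 and Myog.

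Tmem8c, the fusogen, had no count in any E10 library: 0 counts in 6 libraries, which together allow a level of up to 0.0609 CPM. This bound and those on other 0 values below are the level of 3 counts. It had 8 and 5 counts in the E11 25 µm libraries (1.58 and 0.651 CPM), 0 and 0 in the E11 10 µm libraries (up to 1.17 and 1.09 CPM), and 139 counts at E12 (21.4 CPM, 18.0 to 25.3). It was thus detected at E11 in 2 of 4 libraries and at E12. Chrna1, the alpha subunit of the muscle acetylcholine receptor, had 4, 1 and 1 counts at E10 50 µm, 0 at E10 25 µm, 2 and 3 at E10 10 µm, 0 in all 4 E11 libraries and 52 at E12 (8.0 CPM, 5.97 to 10.5). Over the 4 E11 libraries together 3 counts would be 0.166 CPM, and the 11 counts of Chrna1 at E10 pooled to 0.223 CPM. On so few counts a lower level at E11 than at E10 was not shown.

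Des, which encodes the muscle intermediate filament desmin, and Myl1, which encodes an alkali myosin light chain of fast fibres, were present from E10. Des measured 6.96, 23.1 and 8.18 CPM at E10 50 µm, 50.5 at E10 25 µm, 42.6 and 3.77 at E10 10 µm, 109 and 59.8 at E11 25 µm, 15.6 and 83.5 at E11 10 µm, and 38.8 at E12. The E12 library was above the 3 E10 50 µm libraries but below 5 of the other libraries. Myl1 measured 6.08, 6.20 and 5.17 CPM at E10 50 µm, 1.92 at E10 25 µm, 16.0 and 0 at E10 10 µm, 6.12 and 7.03 at E11 25 µm, 0 and 18.6 at E11 10 µm, and 50.8 at E12, its highest value. The heart marker list (Myh6, Myh7, Myl2, Myl3, Myl7, Nppa, Nkx2-5, Tnni3 and Tnnt2) was lowest in the 2 libraries with 0 Myl1 counts, at summed levels of 16.4 and 60.3 CPM (7 of the 9 genes with a count) against 546 to 4336 CPM (9 of 9) in the other libraries. Among those others it did not order Myl1: the heart sum was 701 CPM at E12, where Myl1 was highest, and 1920 to 2784 CPM at E11 25 µm. Des measured 3.77 and 15.6 CPM in those 2 libraries. No heart marker was at 0 across a whole group. The sum of 5 smooth muscle markers (Acta2, Tagln, Myh11, Cnn1 and Actg2), genes of another tissue that makes desmin, was 64.7 to 122 CPM at E10 50 µm, 30.2 to 213 at E10 10 µm, 346 to 364 at E11 25 µm, 47.1 to 497 at E11 10 µm and 415 at E12. At E10 25 µm it was 71.6 CPM with Actg2 at 0. The part of heart and smooth muscle in the section-wide levels of Des and Myl1 was not tested.

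Met, the receptor of hepatocyte growth factor that muscle precursors need to migrate into the limb, had counts in every library. It measured 4.14, 5.01 and 3.01 CPM at E10 50 µm, 3.20 at E10 25 µm, 3.58 and 1.51 at E10 10 µm, 6.32 and 9.38 at E11 25 µm, 3.11 and 7.66 at E11 10 µm, and 18.2 at E12. The E12 library was the highest, and the E10 and E11 ranges overlapped.

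**Figure D1:**
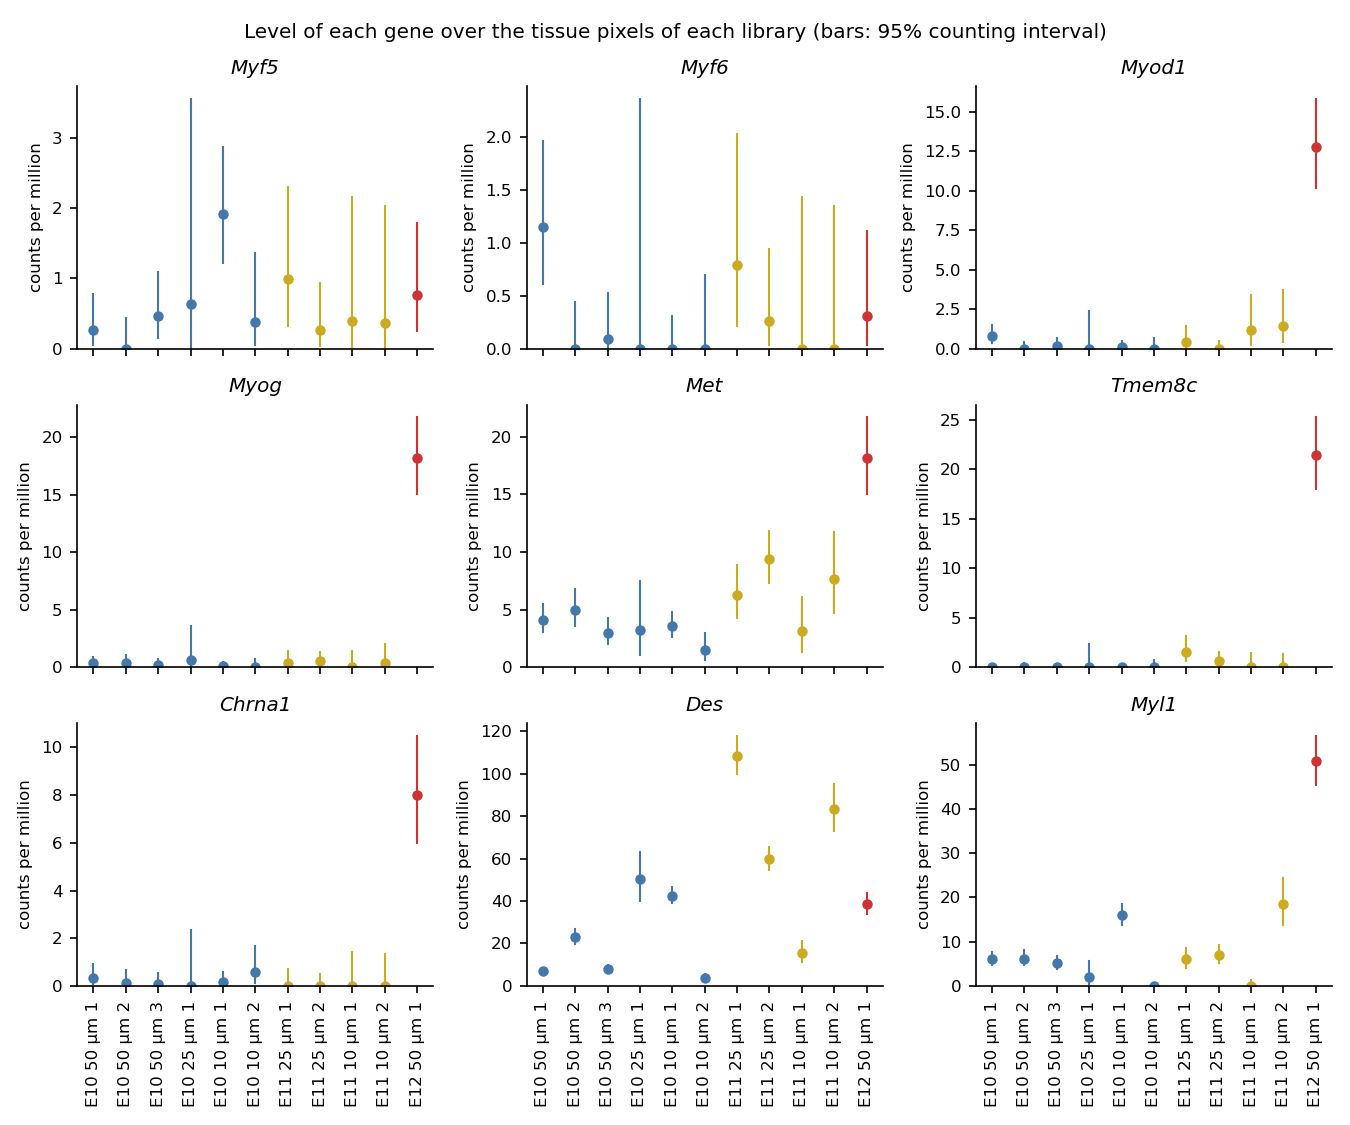
Level of each of the 9 genes (vertical axis, CPM; each panel has its own scale) in each of the 11 libraries (horizontal axis: stage, pixel width and replicate). Points are libraries coloured by stage (blue E10, yellow E11, red E12) and bars are 95% counting intervals; Myod1, Myog, Tmem8c and Chrna1 stand apart at E12 (12.8, 18.2, 21.4 and 8.0 CPM), whereas Des is highest in an E11 library at 109 CPM.

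At the one pixel width shared by E12 and E10, 4 of the 8 members tested were higher at E12 by edgeR's quasi-likelihood test with Benjamini-Hochberg adjustment over all genes (adjusted p under 0.05): Myog, Tmem8c, Chrna1 and Myod1. Of all 18233 genes tested, 1.93% were called higher and 2.14% were called in either direction. Myf6 did not pass the filter on low counts. It stood at 0.308 CPM at E12, against 0 to 1.15 CPM at E10 50 µm. The filter keeps genes high enough in any library, and Myod1, Myog, Tmem8c and Chrna1 passed it only through their E12 counts. The counts over the 8 members tested were thus in part set by the library in which these were high. The median log2 difference was 4.10 over the 8 members tested, also with Tmem8c at its lower bound, and -0.04 over all genes. In all 8 the E12 value lay above the 3 E10 values, which held for 34.5% of all genes tested, and in 6 it lay above all 10 other libraries, which held for 15.3%.

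Myog rose by 5.81 on the log2 scale (SE 0.72, adjusted p = 0.0017), and its pooled level was 61.3 times that at E10 (95% counting interval 31.2 to 137). Tmem8c was at least 217-fold higher, with the E10 group set at the level of 3 counts over its 3 libraries (adjusted p = 0.0026). Chrna1 rose by 5.20 (SE 0.92, adjusted p = 0.019), with a pooled ratio of 40.5 (17.4 to 115). Myod1 rose by 5.11 (SE 0.99, adjusted p = 0.021), with a pooled ratio of 35.3 (18.7 to 73.4).

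The calls did not hold equally well in edgeR with other settings and in DESeq2. Myog kept its call in all 8 alternatives (adjusted p at most 0.015). Tmem8c lost it in DESeq2 (adjusted p = 0.49), and Chrna1 lost it in DESeq2 (0.092) and when E10 replicate 1, 2 or 3 was left out (0.060, 0.066 and 0.10). Myod1 lost it without E10 replicate 2 or 3 (0.053 and 0.11).

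The other 4 tested members were not called. Met differed by 2.11 (SE 0.58, adjusted p = 0.087), and it was called when no genes were filtered (adjusted p = 0.012) and when only the 2 compared groups were fitted (0.013). Myl1 differed by 3.08 (SE 1.69, adjusted p = 0.49), and it was called only in the fit of the 2 groups (0.00020). Des differed by 1.54 (SE 1.34, adjusted p = 0.69) and Myf5 by 1.5 (SE 1.31, adjusted p = 0.68). The spread behind these tests comes from all 11 libraries with 5 residual degrees of freedom, and the 1 library at E12 is assumed to vary like those of the other groups.

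Of 48 further genes of the myogenic pathway in 4 lists, 45 were tested between E12 and E10, 10 were called higher (1.93% of all genes were) and 0 lower. DESeq2 called 8 higher, beside 347 of all 17264 genes. When E10 replicate 1, 2 or 3 was left out, edgeR called 7, 5 and 5 higher. Beside these, 97 of 17863, 150 of 17868 and 92 of 17859 genes were called higher. Without a filter edgeR called 17 higher, beside 941 of all 30104 genes. With only the 2 groups fitted it called 17 higher and 1 lower, beside 939 and 385 of 17380 genes. Among 14 contractile genes 6 rose: Myh8 and Myh3, myosin heavy chains of fetal and embryonic fibres, Neb (nebulin), Klhl41, Mylpf and Tnnt1. Myh3 went from 1.43 to 1.97 CPM at E10 to 208 CPM at E12 (log2 difference 6.91, SE 0.50, adjusted p = 2.8e-05). Among 8 tested genes of the muscle membrane and synapse 3 rose: Cdh15 (M-cadherin), Gm7325 (Mymx, the partner of Tmem8c in fusion) and Chrng, the fetal receptor subunit. Gm7325 went from 0 to 0.176 CPM at E10 to 6.77 CPM at E12 (log2 difference 5.85, SE 1.02, adjusted p = 0.018). Of the genes named here, Myh8, Myh3, Mylpf and Cdh15 kept their calls in DESeq2 and without each E10 library in turn. Tnnt1 lost its call without any 1 of the 3 libraries (adjusted p 0.092 to 0.13), Klhl41 without replicate 1 or 3 (0.058 and 0.057) and Neb without replicate 2 (0.075). Gm7325 lost it without any 1 of them (0.055 to 0.10) and had no adjusted p in DESeq2. Chrng lost it without any 1 of them (0.069 to 0.13) and in DESeq2 (0.18).

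Among 14 genes that act upstream, 1 rose: Msc (musculin), from 0.596 to 0.793 CPM at E10 to 9.23 CPM at E12 (log2 difference 3.62, SE 0.73, adjusted p = 0.024). Msc lost its call in DESeq2 (adjusted p = 0.079) and without any 1 of the E10 libraries (0.072 to 0.12). None of the 9 cofactors and inhibitors (Mef2, E-protein and Id genes) was called by edgeR. An unadjusted p under 0.05 was found for 1 of them and for 2619 of the 18233 genes tested. DESeq2 called 1 of them and 526 of 17264 genes. The median log2 differences were 3.13 for the contractile list, 3.25 for the membrane list, 0.45 for the upstream list and -0.13 for the cofactors, beside -0.04 for all genes. The skeletal marker sum rose with the 4 members, from at most 62.8 to 543 CPM, and its part in their levels was not tested.

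Between E11 and E10, averaged over the widths of 10 and 25 µm, 0 of 8 tested members were called by edgeR, where 3.60% of all genes were called in either direction. Met had an unadjusted p under 0.05 (log2 difference 1.26, SE 0.53, adjusted p = 0.18), as had 4217 of the 18233 genes tested. By DESeq2 0 members were called, and 1392 of 16680 genes. Met was 1.51 to 3.58 CPM in the 3 E10 libraries of those widths and 3.11 to 9.38 CPM in the 4 E11 libraries, so the groups overlapped. Myod1 differed by 3.78 (SE 2.36, adjusted p = 0.35) on 9 counts at E11 against 1 at E10. The pooled ratio was 9.40, with a counting interval of 1.30 to 412. Tmem8c at E11, with 13 counts against 0, was at least 4.53-fold higher in the pooled counts. It was not called in the fit. With 0 counts at E10 and at E11 10 µm, the fit gave no standard error for Tmem8c and could not decide. Of the 45 pathway genes, 0 were called by edgeR and 9 had an unadjusted p under 0.05. DESeq2 called 4 of the pathway genes, 2 higher and 2 lower. Both shares were near those of all genes given above.

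Sections of the same stage also differed in width, and members were compared there to see how far 2 sets of sections of 1 stage could differ. Between E10 sections of 10 and 50 µm, 0 of 8 tested members were called, where 0.110% of all genes were called. Myf5 had an unadjusted p under 0.05 (log2 difference 2.22, SE 0.98, adjusted p = 0.43), as had 1978 of the 18233 genes tested. Of its 25 counts at 10 µm, 23 were in 1 of the 2 libraries. DESeq2 called 0 members. Between E11 sections of 10 and 25 µm, 0 of 8 members were called by edgeR and by DESeq2, where edgeR called 2.07% of all genes. Tmem8c had an unadjusted p under 0.05 (adjusted p = 0.28), as had 2094 of the 18233 genes tested. It had 13 counts at 25 µm and 0 at 10 µm. Of the 45 pathway genes edgeR called 1, a share near that of all genes, and it was lower at 10 µm. This was Myh3, at 0 and 0.778 CPM at 10 µm and 16.3 to 24.5 CPM at 25 µm (log2 difference -5.81, SE 0.76, adjusted p = 0.0022). DESeq2 called 4 of the pathway genes, 1 higher and 3 lower, beside 567 of 16680 genes.

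The E12 section showed where the members' transcripts lay. Of 1535 tissue pixels, 77 held Myod1, 100 Myog, 111 Tmem8c, 44 Chrna1, 217 Myl1, 199 Des and 103 Met. The median pixel had 3560 counts, so that a pixel with no count of a gene may still have transcribed it. The pixels with muscle counts formed a strip along 1 edge of the section, a short band at another edge and smaller patches, whereas Met counts were densest elsewhere.

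**Figure D2:**
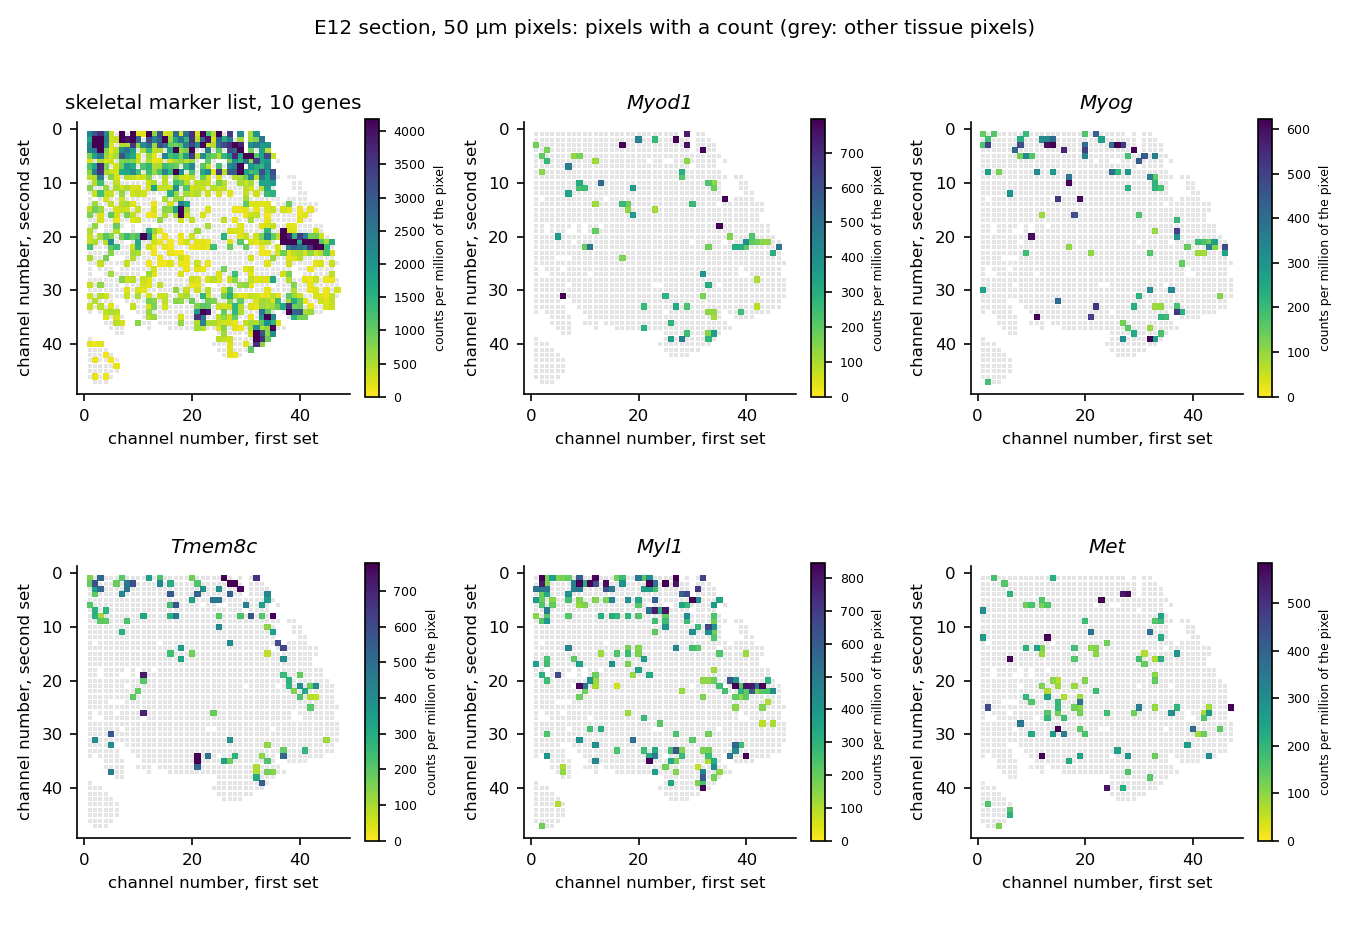
The E12 section with each square a tissue pixel at its crossing of the first and second set of channels (axes: channel number). Colour gives the CPM of that pixel for the 10 skeletal marker genes together and for Myod1, Myog, Tmem8c, Myl1 and Met, with grey squares for tissue pixels without a count; the 5 muscle panels share the strip at low numbers of the second channel set and the short band at high numbers of the first set, and Met does not follow them.

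Co-location was measured as the level of one gene in the pixels with a count of another, over its level in all other tissue pixels. In the E12 section 27 of 42 ordered pairs of members reached a ratio of 2. All 20 pairs among Myod1, Myog, Tmem8c, Chrna1 and Myl1 did, with ratios of 2.81 to 9.47. The highest was Chrna1 in pixels with Tmem8c, at 45.8 CPM against 4.84 CPM elsewhere. Pixels with Myog held 31.7% of the Tmem8c counts, 40.4% of the Chrna1 counts and 26.5% of the Myod1 counts, with 7.53% of all counts. Myod1 and Myog shared pixels at ratios of 4.49 and 4.43.

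Against the background of all genes with at least 10 counts, few reached a ratio of 2 in the same pixels. The share was 5.75% in pixels with Myod1, 5.26% with Myog, 5.61% with Tmem8c, 7.97% with Chrna1 and 3.83% with Myl1, and 4 of the 6 other members or more reached it in each of these 5 pixel sets. In pixels with Des, 4 of 6 members reached it (ratios 0.93 to 3.46), where 3.50% of genes did. In pixels with Met, 0 of 6 members reached it, where 5.50% of genes did.

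No pair with Met reached a ratio of 2. The 12 ratios that involve Met ran from 0.33 (Chrna1 in pixels with Met) to 1.11 (Met in pixels with Tmem8c), and 4 of them lay between 0.93 and 1.11. Pixels with Met were deeper than the others, with a median of 6123 counts against 3431, and the ratios are of levels per count. Pixels with each other member measured were deeper as well. Their medians ran from 4030 counts against 3471.5 for Des to 5934 against 3502 for Chrna1.

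**Figure D3:**
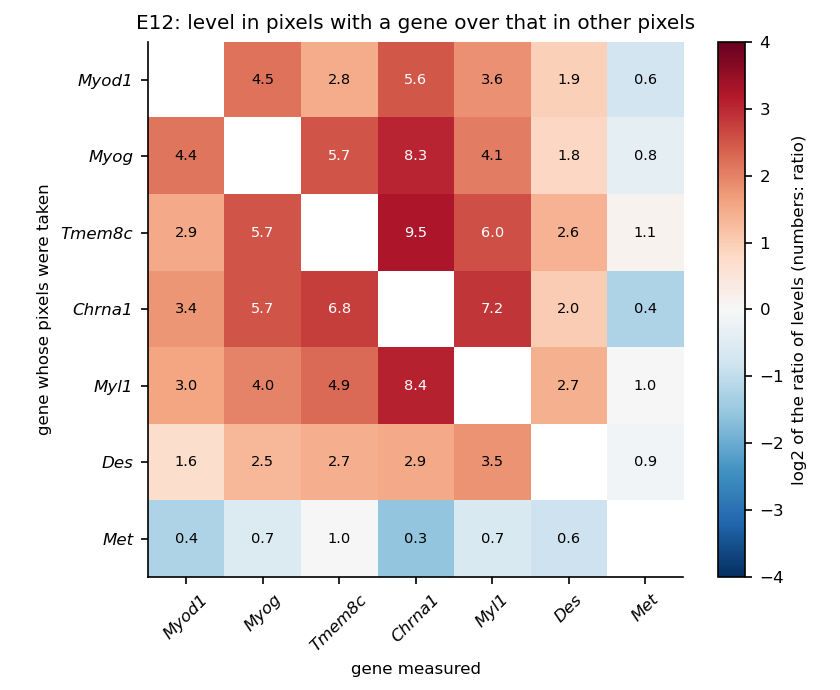
Ratio of the level of the gene in each column in pixels with a count of the gene in each row to its level in all other tissue pixels of the E12 section. Numbers are ratios and colours their log2 (red above 1, blue below 1); the block of Myod1, Myog, Tmem8c, Chrna1 and Myl1 holds 2.81 to 9.47, and the row and column of Met hold 0.33 to 1.11.

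Ratios were also read in touching pixels, where the share of all genes that reached 2 was not measured. In pixels without the first gene that touched a pixel with it (8 neighbours), 24 of the 42 pairs reached a ratio of 2, with Chrna1 around Tmem8c at 11.1 and Tmem8c around Myog at 5.03. Pixels of one gene also lay side by side: 63.0% of the pixels with Myog touched another such pixel, against 31.6% of the other tissue pixels. For Tmem8c these shares were 67.6% and 31.2%, for Chrna1 61.4% and 14.2%, and for Myod1 49.4% and 27.8%.

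The members differed in how closely they followed the 10 skeletal markers at E12, which are not all contractile genes. The 5% of tissue pixels with the highest level of the 10 skeletal markers (77 pixels, 5.0% of all counts) held 40.4% of the Chrna1 counts (exact 95% interval 27.0 to 54.9), 38.8% of Tmem8c (30.7 to 47.5), 38.1% of Myog (29.4 to 47.5) and 37.3% of Myl1 (32.0 to 42.7). They held 19.8% of the Des counts (15.1 to 25.3) and 15.7% of the Myod1 counts (8.61 to 25.3). The intervals of Myod1 and Des lay below those of Tmem8c, Myog, Myl1 and Chrna1. Of Met they held 4.24% (1.39 to 9.61), an interval that includes their share of all counts. As ratios of levels inside to outside these pixels, 6 of the 7 members reached 2 (3.52 for Myod1, 4.70 for Des and 11.3 to 12.9 for Myl1, Myog, Tmem8c and Chrna1), where 7.21% of genes did, and Met was at 0.84.

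Pixels touching the marker-high ones held 13.9% of all counts and 34.9% of the Myod1 counts (24.8 to 46.2). There Myod1 stood at 32.2 CPM, against 40.0 CPM in the marker-high pixels and 7.77 CPM farther away. Over the same rings Myog stood at 36.6 CPM in touching pixels, 138 CPM in marker-high pixels and 7.58 CPM farther away, and Myl1 at 96.6, 378 and 22.8 CPM. With the highest 10% of pixels in place of 5%, a choice made after the data were seen, the shares were 32.5% for Myod1 (22.6 to 43.7) and 50.8% for Myog (41.5 to 60.2), and the 2 intervals overlapped. Myf5 had 3 of its 5 counts and Myf6 had 1 of its 2 counts in the 77 marker-high pixels.

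**Figure D4:**
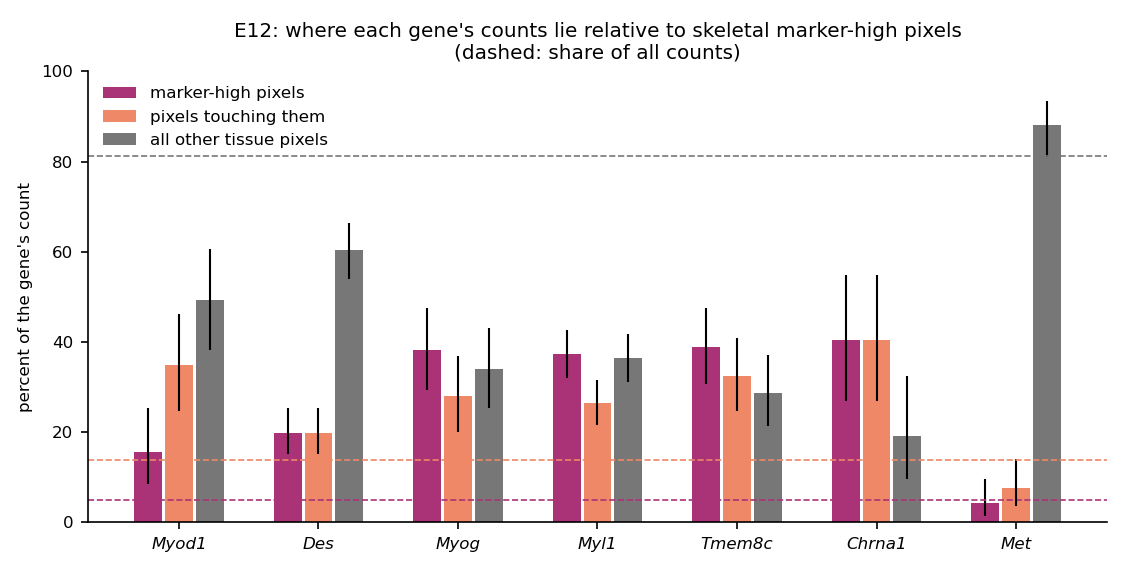
Percent of each gene's count in the E12 section (vertical axis) that lay in the 77 skeletal marker-high pixels, in pixels touching them and in all other tissue pixels. Bars give the share, vertical lines the exact 95% counting interval and dashed lines the share of all counts in the same pixels; Myod1 has 15.7% in the marker-high pixels where Myog has 38.1%, and Met follows the dashed lines most closely.

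The 77 pixels fell into 26 patches of touching pixels, 6 of them with at least 5 pixels. Myog and Tmem8c had counts in each of the 6. The largest, of 13 pixels, held 41 counts of Myl1, 11 of Myog, 9 of Tmem8c, 9 of Chrna1, 10 of Des, 4 of Myod1 and 0 of Met. A patch of 7 pixels held 21 of Myl1, 5 of Myog, 11 of Tmem8c, 3 of Chrna1, 7 of Des and 1 of Myod1. Myod1 was at 0 in 1 of the 6 patches and had at most 4 counts in the others.

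The other genes of the pathway were also read in the 100 pixels with Myog. All 13 contractile genes with at least 10 counts had a level at least 2 times that of the other pixels (median ratio 3.67, range 2.53 to 6.14), as did 7 of 8 membrane and synapse genes (median 3.48). Of the upstream genes 4 of 13 did (median 1.62), and of the cofactors 1 of 9 (median 1.17, with Mef2c at 2.01). Of all 15501 genes with at least 10 counts, 5.26% did. Named here after their values were seen, Musk, the kinase that organises the synapse, had 7 of its 13 counts in those pixels (ratio 14.3), Pax7 had 6 of 41 (2.10) and Pax3, which marks early precursors and also the dorsal neural tube, had 3 of 87 (0.44).

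Genes were ranked by how like their pixel pattern was to the sum of Myod1, Myog, Tmem8c, Chrna1 and Myl1. Members, and genes with Gm-number or Rik names such as Gm7325, were left out of the ranking. At E12 the 8 most alike of the rest were all of the contractile apparatus. Pearson's r across the 1535 pixels was 0.49 for Neb, 0.47 for Myh3, 0.46 for Actc1, 0.44 for Ttn, 0.44 for Mylpf, 0.39 for Tnnt1, 0.38 for Acta1 and 0.35 for Tnnc2. The median over the 11331 genes compared was 0.00, and the pixels share 1 library and its depth.

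At E11 the list of most alike genes was in part another one. In the 2 E11 25 µm libraries the 8 genes most alike were Ttn, Myl4, Actc1, Myh6, Nppa, Tnnt2, Tnnc1 and Myl3, at a mean r of 0.22 to 0.26 over 9519 genes compared. Of these 8, Ttn and Actc1 were also among the 8 at E12. Myh6, an atrial myosin, had r of 0.17 and 0.29 there and -0.02 at E12, and Nppa, an atrial hormone, had 0.14 and 0.32 there and 0.00 at E12. Most of the sum there was Myl1, with 31 and 54 counts in the 2 libraries, beside 8 and 5 of Tmem8c, 2 and 4 of Myog, 2 and 0 of Myod1, and 0 and 0 of Chrna1.

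In those E11 25 µm libraries, 2 of 6 ordered pairs with enough counts were co-located, and both were Des with Myl1. Myl1 in pixels with Des had ratios of 9.20 and 15.8, and Des in pixels with Myl1 had ratios of 5.42 and 7.43. In both libraries at once 2.15% of genes reached 2 in pixels with Des, and 2.61% in pixels with Myl1. Ratios of the 4 pairs with Met were at most 1.32, and 2.01% of genes reached 2 in pixels with Met.

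Part of this lay in pixels rich in heart markers. Of that list, Myh7, Myl2 and Myl3 are also made by slow skeletal fibres and Tnnt2 by embryonic ones. Pixels with the highest 5% of the heart marker list held 34.0% and 38.1% of the Des counts in the 2 E11 25 µm libraries, with 2.74% and 3.33% of all counts, and 22.6% and 46.3% of the Myl1 counts. At E10 50 µm they held 29.1%, 33.0% and 43.7% of Des and 30.4%, 44.2% and 50.9% of Myl1, with 2.20% to 3.51% of all counts. At E12 they held 14.7% of Des and 5.45% of Myl1 with 3.30% of all counts. Pixels with the highest 5% of the smooth muscle list held 28.9% to 31.0% of Des at E10 50 µm, 8.91% and 17.2% at E11 25 µm and 6.35% at E12, with 2.31% to 5.67% of all counts; pixels can be high for several lists. At 50 µm, Myl1 in heart-high pixels thus ranged from 30.4% to 50.9% at E10 and stood at 5.45% at E12, where 37.3% lay in skeletal marker-high pixels.

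With heart-high pixels left out, a choice made after the data were seen, Des and Myl1 still shared pixels at E11 25 µm. The ratios were 6.84 and 8.60 for Myl1 and 6.10 and 6.71 for Des. At E12 they were 3.50 and 2.61, close to the 3.46 and 2.66 over all tissue pixels. At E10 50 µm the ratios for Myl1 in pixels with Des went from 2.90, 5.13 and 8.60 to 1.45, 1.95 and 1.71 without the heart-high pixels, on 5, 8 and 3 counts of Myl1 in those pixels. In the other direction, Des in pixels with Myl1 went from 2.4, 5.18 and 6.28 to 1.81, 3.45 and 1.57. In the first E10 10 µm library both ratios were still at least 2 (2.46 for Myl1 and 2.05 for Des). In the second E11 10 µm library the ratio was 1.41, and 0 of 31 Myl1 counts shared a pixel with Des once heart-high pixels were left out.

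Most Tmem8c counts at E11 lay in skeletal marker-high pixels, which held 5 of 8 counts in the first E11 25 µm library and 4 of 5 in the second, with 2.90% and 3.72% of all counts. Myf5 had 4 of 5 and 1 of 2 counts there, and Myog 1 of 2 and 2 of 4. At that stage 36.5% and 41.3% of the skeletal marker-high pixels were also heart-high, against 5.19% at E12.

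In 3 of 4 E11 libraries and at E12, Met was higher in pixels rich in liver markers than elsewhere. Pixels with the highest 5% of the liver marker list (Afp, Alb, Ahsg, Apoa1, Apoa2, Ttr, Serpina1a and Fgb) held 28.1% and 30.6% of the Met counts at E11 25 µm, with 8.21% and 7.35% of all counts. In the second E11 10 µm library they held 28.6% and at E12 28.8%, with 8.03% and 9.01% of all counts. In the first E11 10 µm library, with a liver sum of 59.1 CPM, they held 0 of 8 Met counts and 4.12% of all counts. At E12 Met stood at 58.1 CPM in liver-high pixels and 14.2 CPM elsewhere. At E10 50 µm, where the liver sum was 59.4 to 137 CPM against 3638 CPM at E12 and Fgb was at 0, such pixels held 0, 1 and 1 of the 47, 42 and 32 Met counts. Met is also a receptor of epithelia, and the sum of 6 epithelial markers (Epcam, Cdh1, Krt8, Krt18, Cldn6 and Cldn7) was 43.8 to 73.7 CPM at E10 50 µm, 96.8 to 207 at E11 25 µm and 117 at E12. Pixels with the highest 5% of that list held 7.63% of the Met counts at E12, with 5.34% of all counts. The liver and the epithelial sums were both higher at E12 than at E10 50 µm, as was Met, and their part in its level was not tested. In pixels that were neither heart-, skeletal- nor liver-high, there were 76 of the 118 Met counts at E12.

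**Figure D5:**
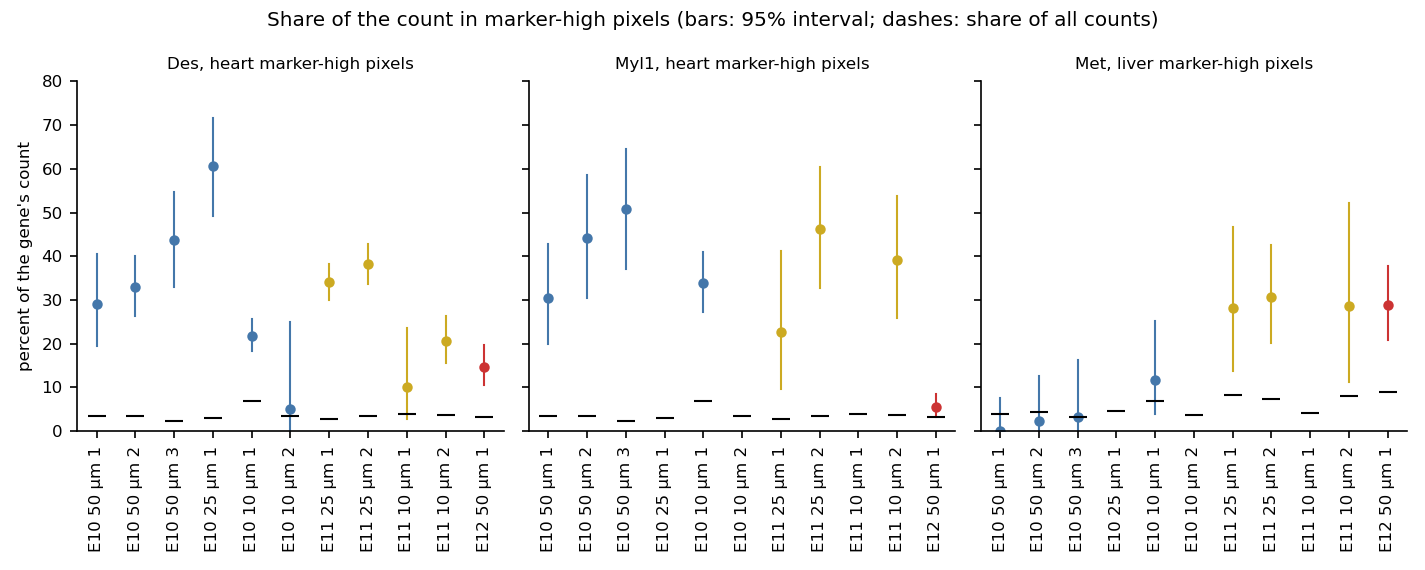
Percent of the count of Des and Myl1 in heart marker-high pixels and of Met in liver marker-high pixels (vertical axis) in each library (horizontal axis), where the gene had at least 10 counts. Points are libraries coloured by stage (blue E10, yellow E11, red E12), bars exact 95% counting intervals and dashes the share of all counts in the same pixels; Myl1 drops to 5.45% at E12, and Met lies at 28.1% to 30.6% in the 3 E11 libraries shown and E12.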

How the data were processed

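Transcript counts of 11 sections were analysed; 4 antibody libraries were not used. The authors deposited raw counts per gene and pixel with no normalization (whole numbers of at least 0, per the file headers and values). The submitters' processing notes name CASAVA 1.8.2 and the build GRCh38 with no role; aligner, annotation, strand use and collapsing of duplicate molecules are not given in the sources used here. A gene without a column in a file was taken as 0. Pixels with totals of at least 0.1 times the 95th percentile in their section counted as tissue. Counts were summed per library and fitted with edgeR 4.0.16 (TMM, quasi-likelihood, 6 group means, filterByExpr) with Benjamini-Hochberg adjustment over all tested genes; DESeq2 1.42.0 was an alternative, and the fit was tested on simulated data (145 of 200 changed genes among 17336 were recovered for E12 against E10). No library was a copy of another. Marker-high pixels are the top 5% by summed CPM of a list; co-location needed 10 pixels and 10 counts. Members and lists were chosen with earlier results of these data known. All members are named. Listed genes are named where called (at most 6 per list and comparison). Also named are the 8 most alike genes by Pearson r of log2(count per 10000 + 1) among genes in at least 2% of pixels. Members and genes with Gm-number or Rik names were left out of that ranking. Intervals are exact (Clopper-Pearson or Poisson) and cover counting error only. Alternatives were other tools, scalings, filters, pixels and samples.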

Additional observations from a re-analysis of the deposited data

How the results depend on the processing

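Between E12 and E10 at 50 µm, 4 members were called, against 2 with DESeq2, 5 with no filter, 6 with only the compared groups and 2 to 3 when 1 E10 library was left out. For DESeq2 the cause was not tested; leaving out a library leaves fewer samples. Size factors by RLE or all pixels gave 4. The 3 other comparisons gave 0 members under every alternative run. The co-located pairs at E12 numbered 18 to 27 under the 4 alternatives and 27 as reported. At E11 25 µm they numbered 2 as reported, 1 with at least 2 counts of the first gene, where only 2 pairs had enough counts, 1 in touching pixels (the cause was not tested), and 2 with either library alone.

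Of the members' differences 8 changed direction, none of them called; fewer samples remain in 7 of these fits, and fits against a library at 0 are no bound. With 1 library left out, the log2 difference between E11 and E10 ran from -1.16 to 1.60 for Myog and from -3.46 to 5.47 for Myl1. Between E10 widths it ran from -0.20 to 1.55 for Chrna1, from -1.68 to 1.71 for Des and from -8.14 to 1.45 for Myl1. Between E11 widths it ran from -1.49 to 0.43 for Myf5 and from -8.66 to 1.42 for Myl1.

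With the replicate block, E11 10 µm against 25 µm gave 0 members, -0.33 for Myl1 and 297 genes in place of 378. Same-numbered E11 libraries showed a correlation of 0.055 in their deviations. With so few libraries per group, this value cannot tell whether same-numbered libraries share an origin.

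Calls over all genes moved more. For E12 against E10 they were 390, but 1328 with no filter, 1324 with only the compared groups and 98 to 169 with 1 library left out. For E11 against E10 they were 656, but 1392 with DESeq2, 1988 with no filter, 281 with only the compared groups and 144 to 1465 with 1 library left out. For E10 10 µm against 50 µm they were 20, but 403 with DESeq2, 731 with no filter, 32 with only the compared groups and 0 to 163 with 1 library left out. For E11 10 µm against 25 µm they were 378, but 870 with no filter and 33 to 463 with 1 library left out. At these depths a gene absent from a library may lie anywhere up to 0.25 to 1.92 CPM.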
